A study of Mus musculus with 12 samples.

Results

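The 10 genes described here are direct transcriptional targets of p53 in mouse: Cdkn1a, Mdm2, Bax, Ccng1, Eda2r, Zmat3, Phlda3, Trp53inp1, Bbc3 and Aen. They were chosen by gene symbol among the 38924 genes of the tables, and all 10 were matched and passed the filter on low counts. The libraries were made from polyadenylated RNA of spinal cord of mice aged 8 weeks on the B6J.Cg background. One genotype carries the C201R change in Gars, the gene of glycyl-tRNA synthetase, in which dominant mutations cause the peripheral neuropathy Charcot-Marie-Tooth disease. It is tagged C201R+/- in the labels, and the WT genotype is tagged C201R+/+. The change is in the germline, so every cell type of the cord carries it, and no treatment is named in the labels. The titles give 4 groups of 3 libraries: C201R female, C201R male, WT female and WT male.

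The title and the library name both give the genotype, and they disagree in 4 of the 12 libraries. By library name, libraries 1, 2, 3, 4, 9 and 10 are C201R and libraries 5, 6, 7, 8, 11 and 12 are WT. By title, libraries 4 and 9 are WT and libraries 11 and 12 are C201R. The undisputed libraries are therefore 1, 2, 3 and 10 for C201R and 5, 6, 7 and 8 for WT. Each comparison below is given by library name, by title and in the 8 undisputed libraries, and these comparisons share libraries.

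p53 is a transcription factor that is held at a low level by the ubiquitin ligase Mdm2 and accumulates after DNA damage, ribosomal stress and other insults. It binds a response element made of a pair of half-sites of 10 bases and raises the transcription of genes that stop the cell cycle, start apoptosis or alter metabolism. In neurons, which do not divide, the pathway is best known for its part in cell death after injury. Among the 10 genes, Cdkn1a and Ccng1 act on the cell cycle and Mdm2 closes the feedback loop. Bbc3, Bax, Aen and Eda2r act in cell death, and Zmat3, Phlda3 and Trp53inp1 have other effector roles.

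RefSeq promoter windows of GRCm38.p6, from 250 bases before to 50 after each start site, were found for 8 of the 10 genes, all but Zmat3 and Trp53inp1. The windows were searched on both strands for the p53 response element with no spacer between its half-sites, keeping the C and G of each half-site's core fixed. The best matches are shown because these genes share a regulator by definition, and the capitals mark the central 4 bases of each half-site, 5′ to 3′ on the strand of the gene.
Cdkn1a: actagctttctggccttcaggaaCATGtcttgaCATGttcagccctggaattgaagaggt
Ccng1: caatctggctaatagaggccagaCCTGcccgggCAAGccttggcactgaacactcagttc
Bbc3: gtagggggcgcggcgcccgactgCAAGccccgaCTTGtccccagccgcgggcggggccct
Aen: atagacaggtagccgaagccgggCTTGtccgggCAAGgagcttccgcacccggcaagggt

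The Cdkn1a stretch lies at chr17:29090908-29090967 on the plus strand, and its match, with 1 mismatch, begins 51 bases before one start site. The window of another Cdkn1a start site, at chr17:29093519-29093818, held no match of up to 3 mismatches. The Ccng1 stretch lies at chr11:40755442-40755501 on the minus strand, and its match, also with 1 mismatch, begins 195 bases before the start site. The Bbc3 stretch at chr7:16309466-16309525 on the plus strand holds a match with 3 mismatches that begins 97 bases before one start site. The windows of its other start sites held no match of up to 3 mismatches. The Aen stretch at chr7:78895917-78895976 on the plus strand holds a match with 3 mismatches, which begins 10 bases after one start site and 121 before another. A match with at most 1 mismatch was present in 2 of the 8 genes, and in 22 of all 27025 genes with a window (0.0814%). With at most 3 mismatches it was present in 4 of the 8 genes and in 1.63% of all genes. The windows of Mdm2, Bax, Eda2r and Phlda3 held no match of up to 4 mismatches, which says nothing of elements elsewhere, such as in introns. A match is a description of the letters and not a test of p53 binding.

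The 12 libraries held between 27175421 and 38271405 estimated counts, and between 22057 and 22579 genes above 0. Xist was between 522 and 685 CPM (counts put on the scale of one library size) in libraries 1, 2, 3, 8, 11 and 12 and at most 0.22 CPM in the other 6. The titled sex goes against Xist and Y-linked transcripts in libraries 2, 3, 4, 5, 6 and 8. The cord's neuron, oligodendrocyte and astrocyte markers were detected in every library. The 5 markers of oligodendrocytes summed to between 22400 and 25900 CPM in C201R and between 25000 and 27400 CPM in WT libraries by library name. Slc18a3, on the motor neuron list, matched no row and was not analysed here, and the other 4 motor neuron markers summed to between 154 and 182 CPM in C201R and between 193 and 270 CPM in WT libraries. The 8 genes of the skeletal muscle list summed to 68.8 to 2920 CPM in C201R and 72.4 to 2350 CPM in WT libraries. Of these Pvalb, which cord neurons also express, gave 52.2 to 120 CPM in C201R and 55.6 to 114 CPM in WT libraries. The other 7 summed to 16.6 to 2800 CPM in C201R and 16.8 to 2240 CPM in WT libraries, and the same 4 libraries, 1, 3, 6 and 8, were highest with and without Pvalb. In bulk tissue, fewer cells of a type and less RNA per cell cannot be told apart.

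Levels can be compared between genes only per length, in TPM (transcripts scaled by length and library). The highest of the 10 was Phlda3, with a median of 90.5 TPM over the 12 libraries (range 78.2 to 93.5). Then came Mdm2 (44.2), Bax (42.1), Zmat3 (38.5), Cdkn1a (35.1) and Ccng1 (30.1), and each neighbouring pair of these 5 overlapped in range. Aen followed at 22.9, Trp53inp1 at 8.88 and Bbc3 at 4.37 TPM, with no overlap between these neighbours. Eda2r was lowest at 0.59 TPM (0.42 to 1.13), resting on 24 to 71 estimated counts per library. Cdkn1a and Mdm2 thus lay well above Bbc3 and Eda2r in every library.

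In the main edgeR fits, no p53 target gene among the 10 passed the threshold in any comparison. By library name 0 of 10 were called by edgeR (adjusted p under 0.05), against 0.715% of all 17765 genes tested. By title 0 of 10 were called, and 0 of all genes. In the undisputed libraries 0 of 10 were called, against 0.158% of 18384 genes. At an unadjusted edgeR p under 0.05 the counts were 3 of 10 by library name (12.8% of all genes), 1 of 10 by title (6.77%) and 3 of 10 in the undisputed libraries (12.7%). By library name and in the undisputed libraries these were Cdkn1a and Mdm2, which lay lower in C201R, and Bbc3, which lay higher, and by title the gene was Mdm2. DESeq2, run as an alternative, called 1 of the 10, Cdkn1a, by library name and in the undisputed libraries, and none by title. Over all genes DESeq2 called 318 by library name, 252 in the undisputed libraries and 18 by title, against 127, 29 and 0 with edgeR. Among the alternative edgeR fits, library number as a term called Trp53inp1 by library name (235 of all genes called). Leaving out library 10 called Cdkn1a in the undisputed libraries (121 of all genes called).

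**Figure D1:**
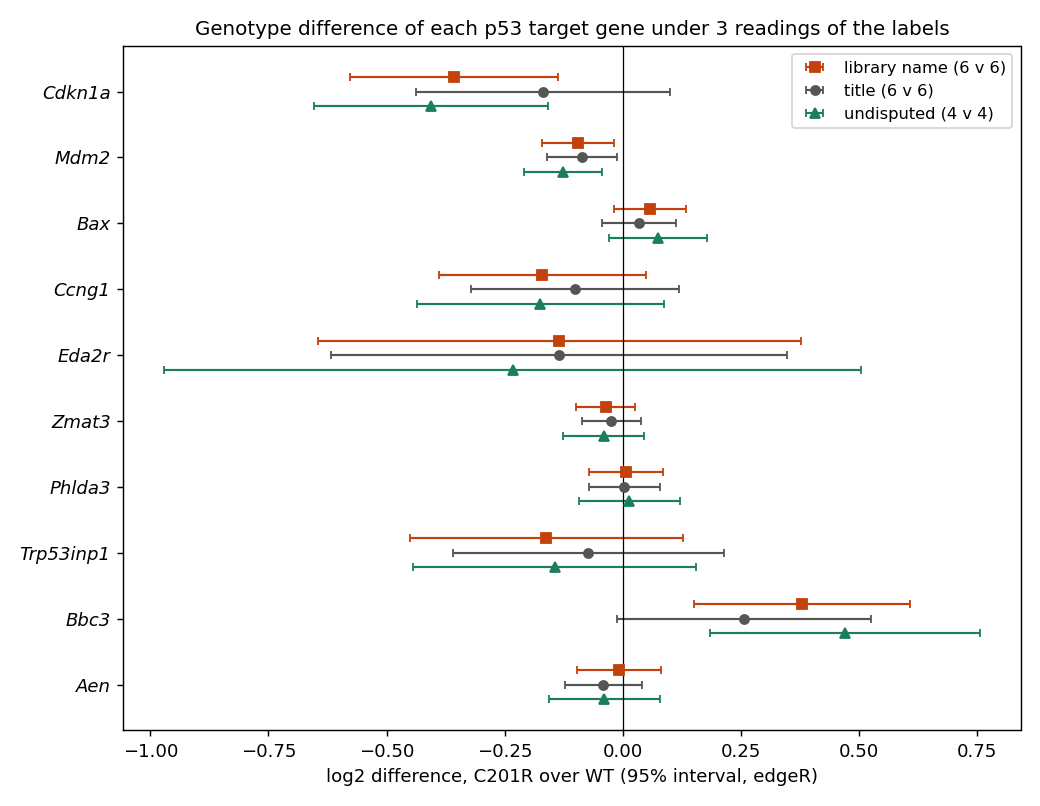
The x axis is the log2 difference, C201R over WT, and each row is a gene; squares are the library-name grouping, circles the title grouping and triangles the undisputed libraries, with 95% intervals from edgeR. Cdkn1a lies left of 0 and Bbc3 right of 0 in all 3 groupings, and their intervals by title cross 0.

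In all 3 groupings 7 of the 10 genes had a negative difference and 3 a positive one. The median log2 difference of the 10 was -0.065 by library name, against 0.002 over all genes tested. It was -0.057 by title, against 0.001 over all genes, and -0.083 in the undisputed libraries, against 0.005. By library name the 10 differences lay between -0.36 and 0.38, and the central 90% of all genes lay between -0.21 and 0.34. Cdkn1a and Bbc3 were outside that range at opposite ends. By title both lay inside it (-0.17 and 0.26, in -0.20 to 0.29), and in the undisputed libraries Cdkn1a lay outside and Bbc3 inside (-0.41 and 0.47, in -0.29 to 0.49).

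Cdkn1a encodes p21, the cyclin-dependent kinase inhibitor through which p53 arrests the cell cycle (ENSMUSG00000023067; chromosome 17, 29090976 to 29100727, plus strand, GENCODE M21). Its level was 22.7, 21.7, 25.9 and 30.8 CPM in the undisputed C201R libraries 1, 2, 3 and 10, against 32.6, 35.2, 33.2 and 31.7 CPM in the undisputed WT libraries 5, 6, 7 and 8. Every undisputed C201R library lay below every undisputed WT library. The disputed libraries named C201R, 4 and 9, had 26.4 and 32.7 CPM, and those named WT, 11 and 12, had 31.8 and 38.2 CPM. By library name 5 of the 6 C201R libraries lay below every WT library, and library 9 was the exception.

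By library name Cdkn1a averaged 26.7 ± 4.34 CPM in the 6 C201R libraries, against 33.8 ± 2.48 CPM in the 6 WT libraries (SD). The log2 difference was -0.36 ± 0.10 (SE; 95% interval -0.58 to -0.14; edgeR adjusted p = 0.158). In the undisputed libraries it was -0.41 ± 0.11 (edgeR adjusted p = 0.182). By title the means were 28.5 ± 6.26 CPM in C201R and 32.0 ± 2.98 CPM in WT, with a difference of -0.17 ± 0.12 (edgeR adjusted p = 0.857). The title grouping places library 12, the highest of all at 38.2 CPM, among the C201R libraries. DESeq2 gave Cdkn1a an adjusted p of 0.028 by library name and 0.0174 in the undisputed libraries. With library 10 left out, the undisputed difference was -0.50 and passed (edgeR adjusted p = 0.0416).

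Sex transcripts were unevenly divided in the undisputed comparison: 3 of the 4 undisputed C201R libraries have high Xist, against 1 of the 4 undisputed WT libraries. By library name the genotypes hold 3 libraries of each kind. Among libraries with high Xist, Cdkn1a was 22.7, 21.7 and 25.9 CPM in C201R libraries 1, 2 and 3, against 31.7, 31.8 and 38.2 CPM in WT libraries 8, 11 and 12. Among libraries with Y-linked transcripts it was 30.8, 26.4 and 32.7 CPM in C201R libraries 10, 4 and 9, against 32.6, 35.2 and 33.2 CPM in WT libraries 5, 6 and 7. C201R named libraries thus lay below WT named libraries in both sets except that library 9 lay above library 5. With the Xist level as a term in place of titled sex, the difference was -0.35 by library name (edgeR adjusted p = 0.0707) and -0.28 in the undisputed libraries (edgeR adjusted p = 0.346). The motor neuron marker sum was also lower in every C201R library by library name, and its part in the Cdkn1a difference was not tested. An annotated transcript on the opposite strand overlaps 1046 bases of Cdkn1a, and whether the counting used the strand is not given in the sources used here, so its counts are uncertain to that extent.

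**Figure D2:**
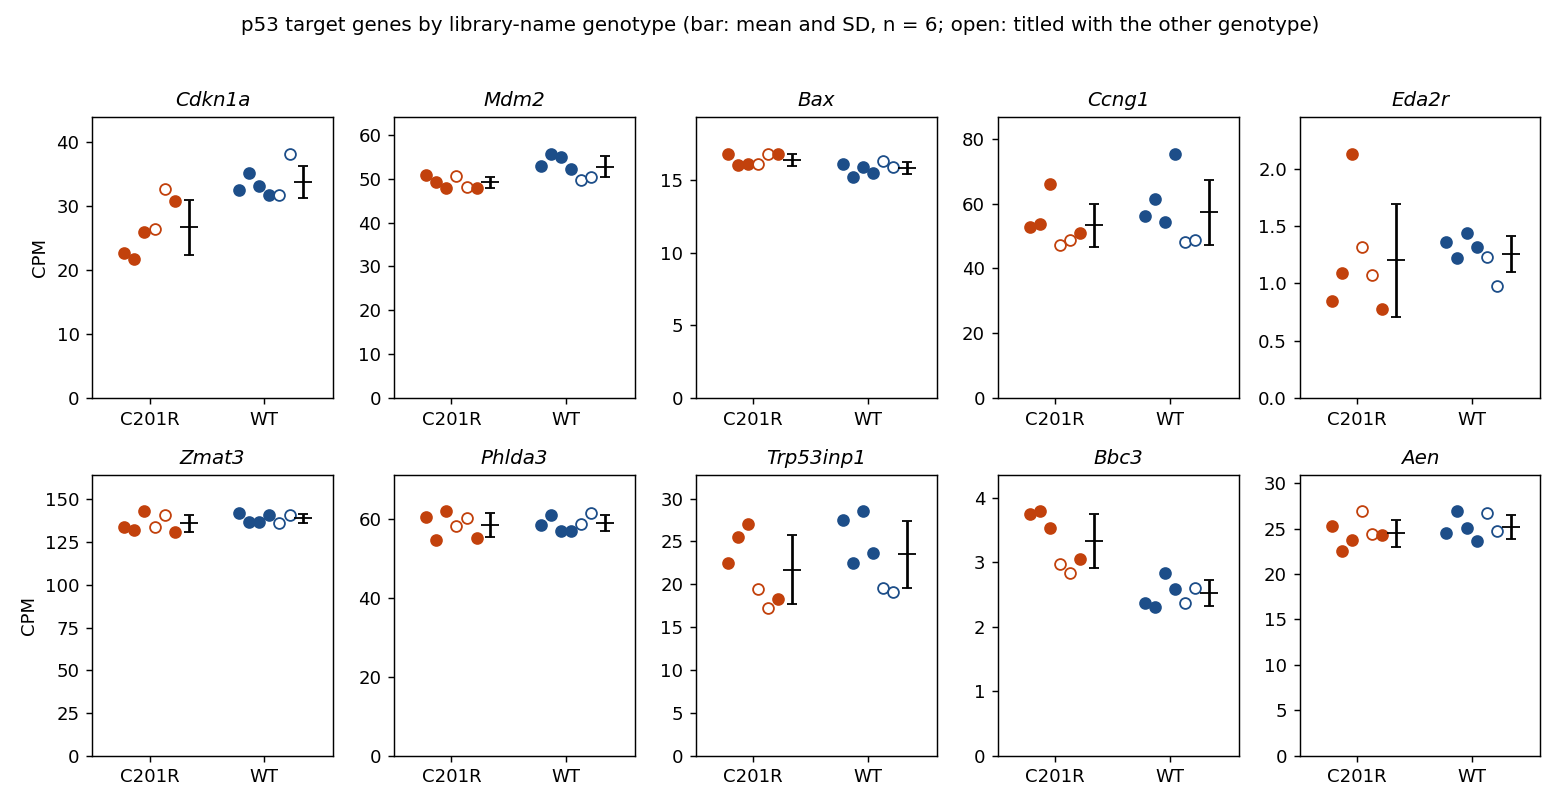
Each panel is a gene, the y axis is CPM from 0, and each point is a library, with C201R left and WT right by library name; open points carry the other genotype in their title, and bars show the mean and SD of 6 libraries. Cdkn1a spans 21.7 to 32.7 CPM in C201R and 31.7 to 38.2 CPM in WT libraries, and Bbc3 spans 2.84 to 3.79 CPM in C201R and 2.31 to 2.84 CPM in WT libraries.

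Ccng1 encodes cyclin G, one of the earliest p53 targets described (ENSMUSG00000020326; chromosome 11, 40748552 to 40755311, minus strand). It was 52.8, 53.8, 66.0 and 51.1 CPM in undisputed C201R libraries 1, 2, 3 and 10 and 56.2, 61.3, 54.4 and 75.4 CPM in undisputed WT libraries 5, 6, 7 and 8. The disputed libraries 4 and 9 had 47.2 and 48.9 CPM, and libraries 11 and 12 had 48.1 and 48.7 CPM. The genotypes overlapped, and the 4 disputed libraries were the 4 lowest of the 12 whatever genotype they were given. The difference was -0.17 ± 0.10 by library name (edgeR adjusted p = 0.528) and -0.10 ± 0.10 by title (edgeR adjusted p = 0.909). It was -0.17 ± 0.11 in the undisputed libraries (edgeR adjusted p = 0.581).

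Library 8 (WT) and library 3 (C201R) were the highest for Ccng1, and they also held the most skeletal muscle transcripts. The marker sum was 2920 CPM in library 3 and 2350 CPM in library 8, and at most 1520 CPM in the other 10. Without the 4 libraries of highest muscle sum, 1, 3, 6 and 8, which left 4 libraries of each named genotype, the Ccng1 difference was -0.10 by library name (edgeR adjusted p = 0.781). The part of muscle RNA in the Ccng1 level of single libraries was not tested.

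**Figure D3:**
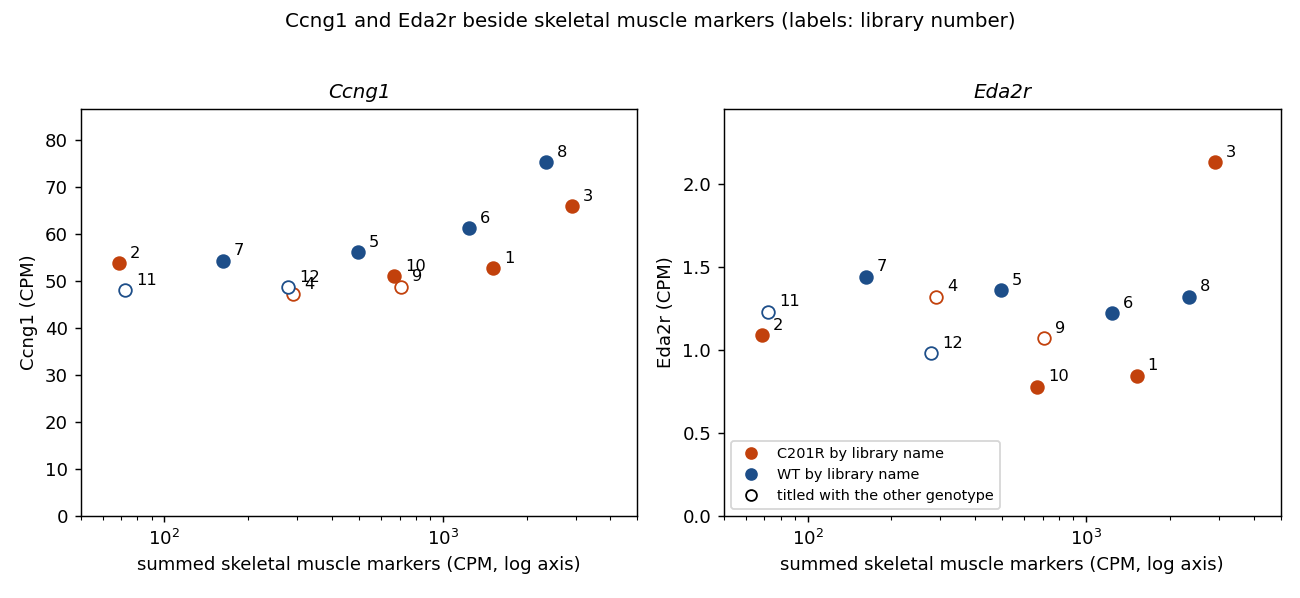
The x axis, logarithmic, is the summed CPM of 8 skeletal muscle markers and the y axis is the CPM of Ccng1 or Eda2r, with 1 numbered point a library and open points for disputed titles. Libraries 8 and 3 are highest for Ccng1 (75.4 and 66.0 CPM), and library 3 is highest for Eda2r (2.13 CPM).

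Mdm2 encodes the ubiquitin ligase that marks p53 for degradation and is itself raised by p53 (ENSMUSG00000020184; chromosome 10, 117688875 to 117710758, minus strand). It was 50.8, 49.3, 48.0 and 48.0 CPM in undisputed C201R libraries 1, 2, 3 and 10, against 53, 55.7, 55.0 and 52.2 CPM in undisputed WT libraries 5, 6, 7 and 8. The undisputed groups did not overlap. The disputed libraries 4 and 9 had 50.6 and 48.1 CPM, and libraries 11 and 12 had 49.8 and 50.3 CPM. All 4 disputed libraries thus lay within the range of the undisputed C201R libraries. The difference was small in each grouping. It was -0.09 ± 0.04 by library name (95% interval -0.17 to -0.02; edgeR adjusted p = 0.281) and -0.09 ± 0.03 by title (edgeR adjusted p = 0.687). In the undisputed libraries it was -0.13 ± 0.04 (edgeR adjusted p = 0.216).

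Undisputed C201R and WT libraries did not overlap for 3 of the 10 genes, Cdkn1a, Mdm2 and Bbc3, against 8.53% of all genes. By library name this held for 0 of 10 genes (1.64% of all genes), and by title for 0 of 10 (0.349%).

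Bbc3 encodes PUMA, a pro-apoptotic protein of the BCL2 family that p53 induces (ENSMUSG00000002083; chromosome 7, 16308393 to 16318205, plus strand). It was 3.75, 3.79, 3.54 and 3.05 CPM in undisputed C201R libraries 1, 2, 3 and 10, against 2.37, 2.31, 2.84 and 2.59 CPM in undisputed WT libraries 5, 6, 7 and 8. All 4 C201R values lay above all 4 WT values. The disputed libraries 4 and 9 had 2.98 and 2.84 CPM, and libraries 11 and 12 had 2.37 and 2.60 CPM. By library name 5 of 6 C201R libraries lay above every WT library, with library 9 the exception as for Cdkn1a.

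By library name Bbc3 averaged 3.33 ± 0.418 CPM in the 6 C201R libraries, against 2.52 ± 0.203 CPM in the 6 WT libraries (SD). The log2 difference was 0.38 ± 0.11 (95% interval 0.15 to 0.61; edgeR adjusted p = 0.145). It was 0.47 ± 0.12 in the undisputed libraries (edgeR adjusted p = 0.182) and 0.26 ± 0.12 by title (edgeR adjusted p = 0.759). Its adjusted p stayed above 0.05 in every alternative run by library name, the lowest being 0.0641 with the Xist term. Without the 4 libraries of highest muscle sum the difference was 0.23 by library name (edgeR adjusted p = 0.769). Bbc3 and Cdkn1a, both p53 targets, thus had estimates of opposite sign, and neither passed in the edgeR fits to all libraries of a grouping.

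Bax encodes the BCL2-family protein that opens pores in the mitochondrial outer membrane (ENSMUSG00000003873; chromosome 7, 45461697 to 45466898, minus strand). It was nearly level over the libraries, between 16.0 and 16.8 CPM in C201R and between 15.2 and 16.3 CPM in WT libraries by library name. The difference was 0.06 ± 0.04 (95% interval -0.02 to 0.14; edgeR adjusted p = 0.576). The upper bound of 0.14 lay below the Bbc3 estimate of 0.38. A second annotated gene on the same strand shares 915 bases with Bax, and RSEM may divide reads between them.

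Aen encodes a nuclease that degrades DNA during apoptosis (ENSMUSG00000030609; chromosome 7, 78895854 to 78911209, plus strand). It ran from 22.5 to 26.9 CPM in C201R and from 23.6 to 26.9 CPM in WT libraries by library name. The groups overlapped almost fully, and the difference was -0.01 ± 0.04 (95% interval -0.10 to 0.08; edgeR adjusted p = 0.966). It was the member with the lowest p for titled sex, with a male over female difference of -0.11 ± 0.04 (edgeR adjusted p = 0.849).

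Eda2r encodes a receptor of the tumour necrosis factor receptor family that binds an isoform of ectodysplasin A (ENSMUSG00000034457; chromosome X, 97333840 to 97377216, minus strand). It was 0.844, 1.09, 2.13 and 0.780 CPM in undisputed C201R libraries 1, 2, 3 and 10 and 1.36, 1.22, 1.44 and 1.32 CPM in undisputed WT libraries 5, 6, 7 and 8. Disputed libraries 4 and 9 had 1.32 and 1.07 CPM, and libraries 11 and 12 had 1.23 and 0.981 CPM. Library 3 stood apart, above every undisputed WT library, and the other 3 undisputed C201R libraries lay below every one, so the undisputed groups overlapped. The log2 difference was -0.13 ± 0.24 by library name (95% interval -0.65 to 0.38; edgeR adjusted p = 0.873), and -0.31 without library 3 (edgeR adjusted p = 0.533). In library 3 the 5 fat markers summed to 126 CPM, against at most 7.37 CPM elsewhere, beside the muscle sum given above. The part of either tissue was not tested. With 24 to 71 counts a library, the 95% interval by library name was wide and held differences of either sign. Its ligand gene Eda was between 3.12 and 4.76 CPM over the libraries, with a difference of -0.05 ± 0.12 (edgeR adjusted p = 0.913). By library name 0 of the 3 tested genes of the ectodysplasin list passed, against 0.715% of all genes.

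Zmat3 encodes a zinc finger protein that binds RNA and had the most counts of the 10 (ENSMUSG00000027663; chromosome 3, 32334792 to 32366014, minus strand). Its values lay within a narrow band, from 131 to 143 CPM in C201R and from 136 to 142 CPM in WT libraries by library name. The difference was -0.04 ± 0.03 (95% interval -0.10 to 0.03; edgeR adjusted p = 0.672).

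Phlda3 encodes a pleckstrin homology domain protein that restrains AKT signalling (ENSMUSG00000041801; chromosome 1, 135766119 to 135769136, plus strand). It ran from 54.5 to 61.8 CPM in C201R and from 56.8 to 61.5 CPM in WT libraries, a difference of 0.01 ± 0.04 (95% interval -0.07 to 0.09; edgeR adjusted p = 0.965). The sign of so small a difference changed between settings.

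Trp53inp1 encodes a stress-induced protein that takes part in p53 phosphorylation and autophagy (ENSMUSG00000028211; chromosome 4, 11156431 to 11174379, plus strand). It was 22.5, 25.5, 27.0 and 18.3 CPM in undisputed C201R libraries 1, 2, 3 and 10 and 27.5, 22.5, 28.5 and 23.7 CPM in undisputed WT libraries 5, 6, 7 and 8. The disputed libraries 4, 9, 11 and 12 had 19.5, 17.2, 19.6 and 19.1 CPM. The 5 lowest libraries were 4, 9, 10, 11 and 12, which hold both genotypes under either label. The difference was -0.16 ± 0.13 by library name (edgeR adjusted p = 0.682). With the library number as a linear term it was -0.43 and passed (edgeR adjusted p = 0.013). The library number is a label of unknown meaning, and its part was not tested further.

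The members differed in how much they varied between libraries. The biological coefficient of variation in the edgeR fit was 5.03% for Zmat3, 5.19% for Mdm2, 5.23% for Phlda3, 5.31% for Bax and 5.96% for Aen, all under the median of 8.24% over all genes. It was 12.1% for Cdkn1a and Ccng1, 12.2% for Bbc3, 15.8% for Trp53inp1 and 24.8% for Eda2r. The members thus fell into 5 steadier and 5 more variable genes, with Eda2r, the gene of fewest counts, at the far end.

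Across the 12 libraries the pairs of members split nearly evenly in sign. Of the 45 pairs, 23 had a positive and 22 a negative Pearson correlation of log2 CPM, with a median r of 0.01. After Benjamini-Hochberg adjustment over the 45 pairs, 1 pair passed. Cdkn1a and Bbc3 had r = -0.86 (permutation p = 0.0004, adjusted p = 0.018) and Spearman's rho = -0.76 (permutation p = 0.00568, adjusted p = 0.256). Without libraries 1 and 2, the farthest from the Cdkn1a median, r was -0.70. On log2(TPM + 1) it was -0.65 and did not pass (permutation adjusted p = 0.319).

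Within the libraries named C201R r was -0.90 (exact permutation p = 0.0194, n = 6), and within those named WT it was 0.08 (exact permutation p = 0.753, n = 6). By title r was -0.89 in C201R (exact permutation p = 0.0333) and -0.65 in WT libraries (exact permutation p = 0.0889). Within the 6 libraries of high Xist r was -0.90 (exact permutation p = 0.0444) and within the other 6 it was -0.64 (exact permutation p = 0.1). Adjusted over these 6 sets, the permutation p was 0.0888 for the libraries named C201R and above 0.05 in each of the others. Spearman's rho was -0.94 in the libraries named C201R (exact permutation p = 0.0167, adjusted p = 0.0501, n = 6) and 0.14 in those named WT (exact permutation p = 0.803, n = 6). The coefficient r was thus negative in each set except the libraries named WT, where the Bbc3 values spanned 2.31 to 2.84 CPM. The difference between the named genotypes in this relation was not tested.

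**Figure D4:**
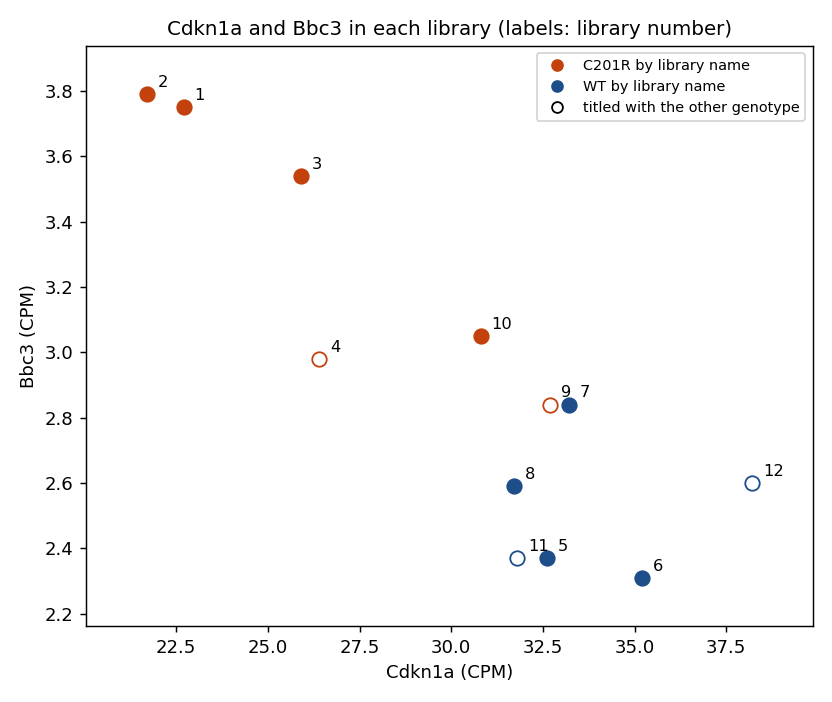
The x axis is Cdkn1a and the y axis Bbc3, both in CPM on axes that do not start at 0, with 1 numbered point a library. Libraries 1, 2 and 3 sit at the upper left (21.7 to 25.9 CPM of Cdkn1a), the libraries named WT at the lower right, and library 9 among the libraries named WT, at 32.7 and 2.84 CPM.

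Titled sex and its interaction with the titled genotype were the other factors of the design. For titled sex 0 of 10 members were called by edgeR, and 0 of all genes. At an unadjusted p under 0.05 there was 1 of 10 members, Aen, against 5.52% of all genes. For the difference of the genotype effect between titled sexes 0 of 10 were called, again with 0 of all genes, and 0 of 10 had an unadjusted p under 0.05 (4.27% of all genes). The edgeR adjusted p of the 10 lay between 0.849 and 0.99 for titled sex and between 0.967 and 0.994 for the interaction. Since Xist goes against 6 of the 12 titles, these fits test the titles and not the sex of the animals.

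Neither the gene of p53 itself, Trp53, nor any of its regulators passed the test. By library name Trp53 averaged 18.9 ± 1.00 CPM in C201R, against 18.4 ± 1.14 CPM in WT (SD over 6 libraries each), with a difference of 0.06 ± 0.05 (edgeR adjusted p = 0.696). Mdm4, the partner of Mdm2 in restraining p53, averaged 55.1 ± 2.53 CPM in C201R, against 53.7 ± 2.00 CPM in WT (0.04 ± 0.04, edgeR adjusted p = 0.757). Besides Trp53 and its paralogs Trp63 and Trp73, 16 regulators were tested. By library name 7 were higher and 9 lower, with a median of -0.01 on the log2 scale, and 0 of the 16 passed in any of the 3 groupings. Of all genes, 0.715% passed by library name, 0 by title and 0.158% in the undisputed libraries. The pair of lowest p by library name, not passing, was Rchy1, a ubiquitin ligase of p53 (0.09 ± 0.04), and Ep300, an acetyltransferase that acetylates it (-0.06 ± 0.03). p53 is regulated largely at the protein level, which these data do not measure.

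A wider list of 72 other p53 targets, in 4 functional lists, was read in the same fits. By library name 34 were higher and 38 lower, with a median log2 difference of -0.01, and 2 of 72 were called, both higher, against 0.715% of all genes. By title 0 of 72 were called (0 of all genes), and in the undisputed libraries 0 of 72 (0.158% of all genes). At an unadjusted edgeR p under 0.05 there were 10 of 72 by library name, against 12.8% of all genes. There were 4 of 72 by title, against 6.77%, and 11 of 72 in the undisputed libraries, against 12.7%. Both called genes, Sesn2 and Gdf15, stand in the metabolism and stress list of 22 genes. In that list 7 of 22 had an unadjusted edgeR p under 0.05 by library name. Among the 15 cell cycle targets 0 passed, with Plk3 (0.13 ± 0.07) and Fbxw7 (-0.06 ± 0.03) lowest in p. Among the 14 cell death targets 0 passed, with Bid, which activates Bax, at 0.26 ± 0.08 (edgeR adjusted p = 0.209) and Tnfrsf1a, a tumour necrosis factor receptor, at 0.10 ± 0.06. Among the 21 targets of DNA repair and other roles 0 passed, with Xpc, a sensor of DNA lesions, at 0.17 ± 0.06 (edgeR adjusted p = 0.245) and Ano3 at -0.17 ± 0.05.

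**Figure D5:**
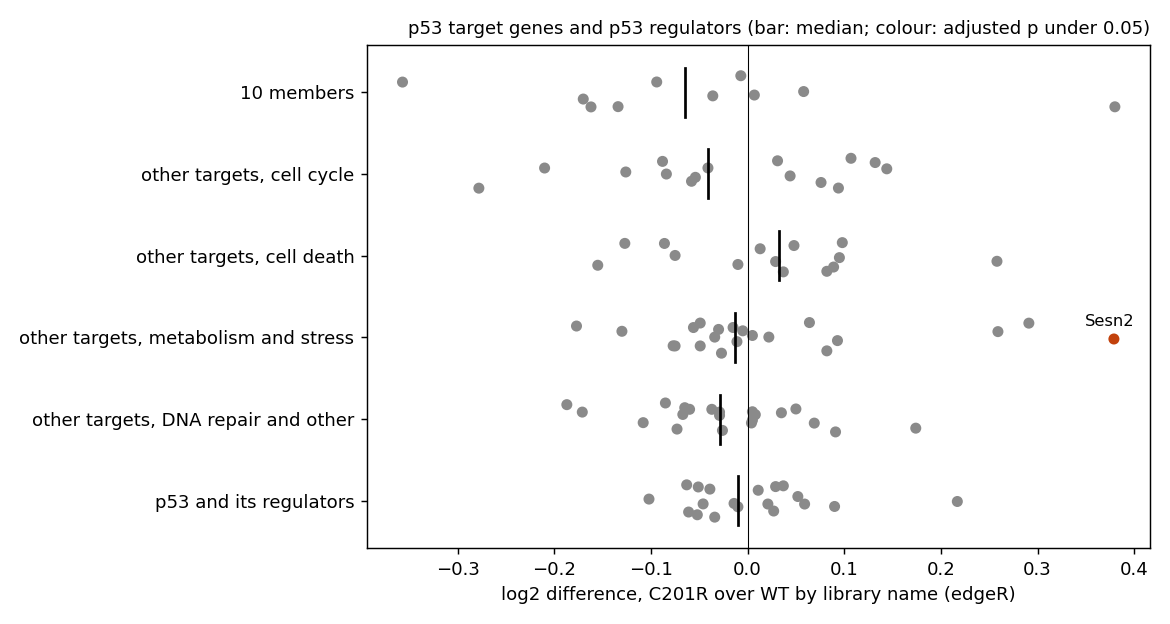
The x axis is the log2 difference, C201R over WT by library name, each point is a gene, and vertical bars are list medians. All lists centre near 0, and the coloured point is Sesn2 at 0.38; Gdf15, at 9 WT counts in all, is left out of the points and kept in the median.

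Sesn2 encodes a sestrin that restrains mTOR signalling and is known as a target of both p53 and the transcription factor Atf4. It was 25.6, 24.2, 24.2 and 25.4 CPM in undisputed C201R libraries 1, 2, 3 and 10, against 19.6, 17.7, 20.2 and 20.0 CPM in undisputed WT libraries 5, 6, 7 and 8. Disputed libraries 4 and 9 had 26.5 and 23.8 CPM, and libraries 11 and 12 had 18.4 and 19.4 CPM. The values followed the library name without overlap. Sesn2 rose in C201R, with a log2 difference of 0.38 ± 0.05 (edgeR adjusted p = 0.00133). By title the means were 22.9 ± 3.14 CPM in C201R, against 21.3 ± 3.25 CPM in WT (SD over 6 libraries each). In the undisputed libraries the difference was 0.35 ± 0.05 (edgeR adjusted p = 0.0623). The call was lost without the 4 libraries of highest muscle sum (0.38, edgeR adjusted p = 0.0916).

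Gdf15, a secreted stress cytokine induced by p53 and by Atf4, had 89 estimated counts in the 6 libraries named C201R and 9 in the 6 named WT, a ratio of 9.31 after scaling to the library totals (95% interval 4.69 to 21.0, counting error only). Each C201R library held 11 to 20 counts and each WT library 0 to 4. It passed by library name (edgeR adjusted p = 0.0143), and the call was lost without library 1 (edgeR adjusted p = 0.0836) and without library 7 (0.0558), as well as without the 4 libraries of highest muscle sum (0.399). The fitted log2 difference was 3.22, 3.00 and 2.61 in those fits, a value that depends on the prior count at so few WT counts.

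The Atf4 programme, known as the integrated stress response, was read as a list that shares Sesn2 and Ddit4 with the wider p53 list. That list was chosen with earlier results of these data known, so its counts are not an independent test. By library name 12 of its 14 genes were higher, against 50.9% of all genes tested, and 5 were called, against 0.715%. The 5, all higher, were Fgf21, Sesn2, Chac1, Atf5 and Atf4. Its median log2 difference was 0.18, against 0.002 over all genes tested. Fgf21, a secreted hormone, had 733 estimated counts in the 6 libraries named C201R and 2 in the 6 named WT, a ratio of 345 after scaling to the library totals (95% interval 95.2 to 2860, counting error only). Chac1, a glutathione-degrading enzyme, rose by 0.57 ± 0.07 (edgeR adjusted p = 0.00268), and Atf4 rose by 0.18 ± 0.03 (edgeR adjusted p = 0.0342). Atf5, a related transcription factor, rose by 0.26 ± 0.05 (edgeR adjusted p = 0.034). The Atf4 call was lost without any 1 of libraries 1, 3, 4, 5, 7, 8, 10, 11 and 12 (edgeR adjusted p from 0.0565 to 0.136), and the Atf5 call without any 1 of libraries 1, 4, 5, 7, 8, 10, 11 and 12 (0.0521 to 0.132). Of the 23 alternatives by library name, 16 lost the Atf4 call and 11 the Atf5 call, with differences of 0.15 to 0.21 for Atf4 and 0.22 to 0.32 for Atf5. Besides the libraries left out, Atf4 failed with no filter on low counts, the 3 limma settings, no sex term, the Xist term (edgeR adjusted p = 0.0506) and without the 4 libraries of highest muscle sum (0.253). Atf5 failed with limma without a filter, with library number (edgeR adjusted p = 0.07) and without those 4 libraries (0.193). Without them the Chac1 call was also lost (0.55, edgeR adjusted p = 0.121). By title 0 of the 14 were called (0 of all genes), and in the undisputed libraries 2 were, Fgf21 and Chac1 (0.158% of all genes).

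Around Bbc3 and Bax, 20 genes of the BCL2 family and the apoptosome were tested, and 11 were higher and 9 lower by library name (median 0.012 on the log2 scale). At an unadjusted edgeR p under 0.05 there were 9 of 20 by library name, against 12.8% of all genes. There were 3 of 20 by title, against 6.77%, and 8 of 20 in the undisputed libraries, against 12.7%. The 1 called gene (0.715% of all genes were called) was Dffa, which encodes the inhibitor and chaperone of the caspase-activated nuclease. Dffa was 77.3, 67.7, 69.8 and 74.9 CPM in undisputed C201R libraries 1, 2, 3 and 10, against 99.3, 107, 96.7 and 104 CPM in undisputed WT libraries 5, 6, 7 and 8. The disputed libraries followed their names, with 76.8 and 74.1 CPM in libraries 4 and 9 and 101 and 96.1 CPM in libraries 11 and 12. The log2 difference of Dffa was -0.44 ± 0.04 by library name, where it fell (edgeR adjusted p = 0.000112), and -0.47 ± 0.05 in the undisputed libraries (edgeR adjusted p = 0.0106). The library-name call held under all 23 alternatives. The undisputed call was lost without library 1, 3 or 7 (edgeR adjusted p = 0.101, 0.0566 and 0.0549), where the difference was -0.50, -0.46 and -0.49. It was also lost with the 3 limma settings and library number (edgeR adjusted p = 0.0531). Without the 4 libraries of highest muscle sum the difference was -0.44. That fit kept C201R libraries 2 and 10 and WT libraries 5 and 7, and only library 5 was titled female. The titled sex term took up library 5, which left library 7 as the only WT library, so the fit could not decide the call.

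Around Cdkn1a and Ccng1, 22 other inhibitors, cyclins and division genes were tested. By library name 14 were higher and 8 lower, with a median log2 difference of 0.068. By title 16 were higher and 6 lower (0.056), and in the undisputed libraries 17 and 5 (0.104). Of the 22, 0 passed in any grouping, where 0.715%, 0 and 0.158% of all genes did. At an unadjusted edgeR p under 0.05 there were 3 of 22 by library name, against 12.8% of all genes. There were 5 of 22 by title, against 6.77%, and 6 of 22 in the undisputed libraries, against 12.7%. The lowest p by library name belonged to E2f1, a transcription factor of the G1 to S transition, which averaged 6.65 ± 0.571 CPM in C201R, against 7.91 ± 0.429 CPM in WT (SD over 6 libraries each; -0.22 ± 0.07, edgeR adjusted p = 0.167). Cdk2, a kinase that p21 inhibits, averaged 3.18 ± 0.303 CPM in C201R and 2.68 ± 0.342 CPM in WT (0.30 ± 0.10, edgeR adjusted p = 0.247).

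Cdkn1a is also known to be raised by glucocorticoids in several cell types, and a list of 18 other glucocorticoid-responsive genes was read beside it. Of these 16 were lower and 2 higher in each of the 3 groupings, where between 50.7% and 52.1% of all genes were higher, with a median log2 difference of -0.15 by library name, -0.17 by title and -0.20 in the undisputed libraries. By library name and by title 0 of 18 were called (0.715% and 0 of all genes). The undisputed libraries gave 1 call (0.158% of all genes), Fkbp5, the immunophilin that tempers the glucocorticoid receptor. Fkbp5 averaged 22.6 ± 1.63 CPM in undisputed C201R and 30.7 ± 1.01 CPM in undisputed WT libraries (SD, n = 4 each; -0.45 ± 0.06, edgeR adjusted p = 0.0334). The call was lost when any 1 of libraries 1, 2, 3, 5, 6, 7 and 8 was left out (edgeR adjusted p from 0.0566 to 0.354). It was also lost with the Xist term (-0.41, edgeR adjusted p = 0.072), the 3 limma settings and library number (0.152). Without the 4 libraries of highest muscle sum the difference was -0.38. In that fit the titled sex term took up library 5 and left library 7 as the only WT library, so it could not decide the call. The Fkbp5 difference stayed between -0.48 and -0.31 under the 19 alternatives. The disputed libraries named C201R, 4 and 9, had 27.2 and 32.3 CPM, and those named WT, 11 and 12, had 23.2 and 26.6 CPM, so Fkbp5 did not follow the library name there. It followed the title without overlap, at 20.6 to 26.6 CPM in C201R and 27.2 to 32.3 CPM in WT libraries by title. By title 0.349% of all genes did not overlap. The relation of the listed genes to the Cdkn1a level was not tested. Their list was chosen with earlier results of these data known, so its counts are not an independent test.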

How the data were processed

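Libraries were stranded polyA preparations sequenced as 75-base paired reads, per the labels' protocols. The submitters' processing notes name RSEM 1.2.12 and Bowtie2 2.2.0. A genome build and an annotation release are not given there or in the file headers. Per the file headers, the deposited RSEM tables hold an estimated count and TPM per gene, with length and effective length. FPKM was not used.

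Estimated counts were rounded, filtered by filterByExpr on the 4 titled groups, scaled by TMM and tested with edgeR 4.0.16 (quasi-likelihood, titled sex as a term, Benjamini-Hochberg adjustment over all genes, threshold 0.05). CPM are TMM-scaled, SE is the difference over the square root of F, and intervals are 95%. Whether libraries are separate animals is not spelled out in the labels, and the p-values then measure only spread between libraries, which may be technical. Correlations used 100000 permutations, or all pairings within groups of 6. Alternatives were DESeq2 1.42.0, RLE, other filters, limma 3.58.1 on TPM, no sex term, library number, and each library left out. The Xist term and the fit without the 4 libraries richest in muscle transcripts were added after seeing the data. The titled sex term of the genotype fits goes against Xist and Y-linked transcripts in libraries 2, 3, 4, 5, 6 and 8. With the Xist term in its place 182 genes were called by library name, 0 by title and 20 in the undisputed libraries. Of the 10 members 0 were called in each. The fits and permutations were tested on simulated data.

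The members and lists were chosen with earlier results of these data known. Counts within a list set beside the share of all genes are therefore descriptions and not independent tests. The rule named the 10 members, Trp53, Mdm4 and, per list, up to 6 called genes or otherwise the 2 of lowest p. Positions are from GENCODE M21, promoter sequences from RefSeq.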

Additional observations from a re-analysis of the deposited data

Results flagged for a closer look

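A sample far from the others of its group was looked for among the members in groups of 4 to 10 libraries. Of 60 groups in all, 3 were flagged. The groups share libraries and so are not independent. All 3 flags fall in library 3, and the same Ccng1 value was flagged by library name and by title. Ccng1 was 66.0 CPM in library 3, a gap of 0.649 of the group's range above the other libraries named C201R and 0.682 of the range among those titled C201R. Eda2r was 2.13 CPM in library 3, a gap of 0.667 of the range above the other libraries titled C201R. Library 3 had the highest sums of skeletal muscle markers (2920 CPM) and fat markers (126 CPM) of the 12, and their part in either value was not tested.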

How the results depend on the processing

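The Cdkn1a difference by library name stayed negative under all 23 alternatives, from -0.41 to -0.21, and that of Bbc3 stayed positive, from 0.23 to 0.43. DESeq2 called 1 of the 10 members by library name and 1 in the undisputed libraries (Cdkn1a both times), and the library number as a term called 1 by library name (Trp53inp1). Leaving out each library called 0 to 1 members in the undisputed libraries. The cause of these shifts was not tested. Genes called by library name (127) came to 318 with DESeq2, 41, 42 and 36 with limma on log2(TPM + 1), log2(TPM + 0.1) and log2(TPM + 1) without a filter, 235 with library number, 12 without the 4 libraries richest in muscle transcripts, and 52 to 209 with each library left out. By title (0) they came to 18 with DESeq2 and 8 with library number. In the undisputed libraries (29) they came to 252 with DESeq2, 91 with no filter, and 10, 12 and 3 with the 3 limma settings. They came there to 70 with no sex term, 14 with library number, and 5 to 121 with each library left out. The fit without the muscle-rich libraries is not counted there, because the titled sex term took up library 5 and left WT library 7 alone. DESeq2 called 9 genes for titled sex and 2 for the interaction. Leaving out each library called 0 to 1 and 0 to 2 genes there. On log2(TPM + 1) 0 pairs of members passed.

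Differences near 0 changed sign. Aen by library name was 0.013, 0.014 and 0.013 with limma, 0.01 with library number, 0.004 without the muscle-rich libraries and -0.029 to 0.018 with each library left out. Phlda3 by library name was -0.012 with no sex term, -0.012 with the Xist term, -0.02 without the muscle-rich libraries and -0.01 to 0.024 with each library left out. By title it was -0.003 with no filter, -0.017 with the Xist term, -0.026 without the muscle-rich libraries and -0.022 to 0.02 with each library left out. In the undisputed libraries it was -0.006 with no sex term, -0.007 with library number, -0.019 with the Xist term, -0.054 without the muscle-rich libraries and -0.022 to 0.035 with each library left out. With each library left out, Eda by library name ran from -0.13 to 0.036 and Trp53inp1 by title from -0.163 to 0.002. No paired analysis was possible because the replicate numbers are library numbers and no group shares one with another. Eda2r, with 24 to 71 counts a library, is the member that depth limits most.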
